A study of Homo sapiens with 8 samples.

Results

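The chemokine CXCL12 and its receptors CXCR4 and ACKR3 were measured in MDA-MB-231 cells, an established human triple-negative breast cancer line, grown on a soft or a stiff substrate. The genes are 3 of the 19775 named on the arrays, and 8 of the 41091 probe sets assigned to a single gene read them: 3 for CXCR4, 3 for ACKR3 and 2 for CXCL12. The trio was selected on earlier results of these arrays, with the soft against stiff difference of CXCR4 known, and holds that receptor, its ligand and the ligand's other receptor. The soft against stiff values of the members are therefore a description and carry no test. There were 4 soft and 4 stiff samples, each called a biological replicate and lettered A to D. All came from 1 cell line, for which the labels name no genetic change, kept 2 days on either substrate in serum-supplemented DMEM/F12. The labels give neither the stiffness nor the material of the substrates, and do not say how the cultures were separated. P-values below thus set a difference against the spread between these samples, and the number of samples limits the precision.

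CXCL12, also called SDF-1, is a chemokine made mainly by stromal cells. CXCR4 is its signalling receptor: it couples to inhibitory G proteins and drives directed migration, and its surface level is set by receptor kinases, arrestins and ubiquitin-dependent sorting to lysosomes. ACKR3, once named CXCR7, binds the same ligand but signals through arrestins and not through G proteins, and clears CXCL12 from the surroundings. In breast cancer CXCR4 is best known for guiding cells to organs rich in CXCL12, such as bone and lung.

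The sequence before the 5′ start of CXCR4 is shown because CXCR4 is the member that differed and because factors known to bind such motifs are measured below. These are the 250 bases before 1 of the gene's 3 listed starts, on the minus strand of chromosome 2 (chr2:136118150-136118399, GRCh38.p14, RefSeq). Capitals mark the matches to 2 motifs, searched on both strands: part of the palindrome bound by nuclear respiratory factor 1 (GCATGCGC) and the GC box bound by SP1 (GGGCGG).

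CXCR4 promoter: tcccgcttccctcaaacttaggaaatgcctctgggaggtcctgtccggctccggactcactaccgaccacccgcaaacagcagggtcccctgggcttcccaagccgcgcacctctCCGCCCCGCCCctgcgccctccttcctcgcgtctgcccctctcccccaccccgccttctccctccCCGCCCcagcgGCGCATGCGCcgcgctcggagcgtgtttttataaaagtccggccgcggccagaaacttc

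The pair of overlapping NRF1 matches began 59 and 57 bases before the start, and the 3 GC boxes 135, 130 and 70 bases before it. Over all 35116 windows of this length, 2.63% held the NRF1 letters and 42.6% a GC box. The core of the hypoxia response element (ACGTG), held by 18.5% of windows, was not among these letters. At the other listed CXCR4 starts no window held the NRF1 letters or ACGTG, and 1 held a GC box. Sequence outside these windows was not searched. The window of CXCL12 held 3 GC boxes and neither of the other motifs. A match of letters is not a bound site.

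CXCR4 was the one member with clear signal, and it was lower on soft. On its brightest probe set, 217028_at, the log2 level was 9.74, 10.11, 10.52 and 10.04 on soft A to D, against 11.32, 11.38, 10.91 and 10.86 on stiff A to D. The highest soft array (C) lay 0.34 below the lowest stiff array (D), so the groups did not overlap. The means were 10.1 ± 0.321 on soft and 11.12 ± 0.27 on stiff (SD, n = 4 each), a log2 difference of -1.02 (SE 0.163), which puts the soft level at 0.495 of the stiff one. A lower difference was found for 23 of 54613 probe sets, and for 64 and 66 at the other CXCR4 probe sets described below. CXCR4 was chosen with this difference known, so nothing is read from these ranks. In a bulk sample, fewer cells carrying the transcript and less transcript per cell cannot be told apart.

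The other CXCR4 probe sets gave the same direction with a smaller difference. Probe set 211919_s_at read 8.31, 8.48, 8.76 and 8.36 on soft, against 9.47, 9.60, 9.15 and 8.99 on stiff (difference -0.83, SE 0.138). Probe set 209201_x_at read 8.11, 8.38, 8.78 and 8.41 on soft, against 9.41, 9.51, 9.11 and 8.93 on stiff (difference -0.82, SE 0.151). On each of the 3 probe sets soft C was the highest soft array, soft A the lowest, and stiff A and B lay above stiff C and D. The suffixes of these 2 dimmer probe sets mark probe sets that may share probes with other transcripts, and 217028_at carries no such mark. All 3 had every soft array below every stiff one, as did 8.5% of all probe sets, and nothing is read from this count because the gene was chosen with the contrast known.

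The stiff arrays fell into a higher pair (A, B) and a lower pair (C, D) for CXCR4, and soft was lower than either. The difference of 217028_at was -1.25 from the A and B pair and -0.78 from the C and D pair. For 211919_s_at these differences were -1.06 and -0.59, and for 209201_x_at -1.04 and -0.60. Without soft A the difference of 217028_at was -0.89, and without soft C it was -1.15, the ends of the range over arrays left out in turn. The mean of the 3 probe sets differed by -0.89 (SE 0.148).

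**Figure D1:**
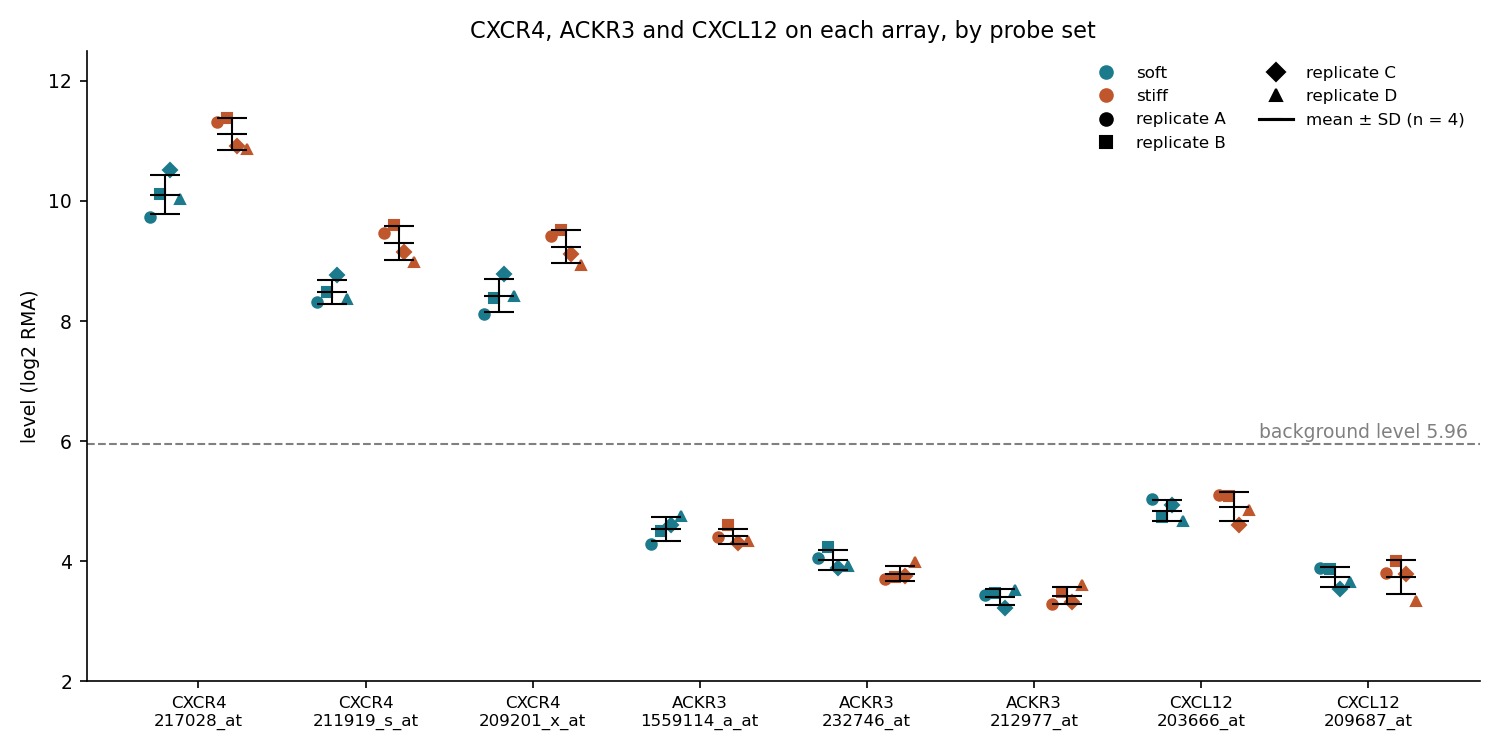
Level (log2 RMA) of each probe set of CXCR4, ACKR3 and CXCL12 on the 4 soft and 4 stiff arrays, with the mean and SD of each group and a dashed line at the background level of 5.96. The CXCR4 groups do not overlap on any of its probe sets (soft 9.74 to 10.52 against stiff 10.86 to 11.38 on 217028_at), and the ACKR3 and CXCL12 points all lie under the line.

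**Figure D2:**
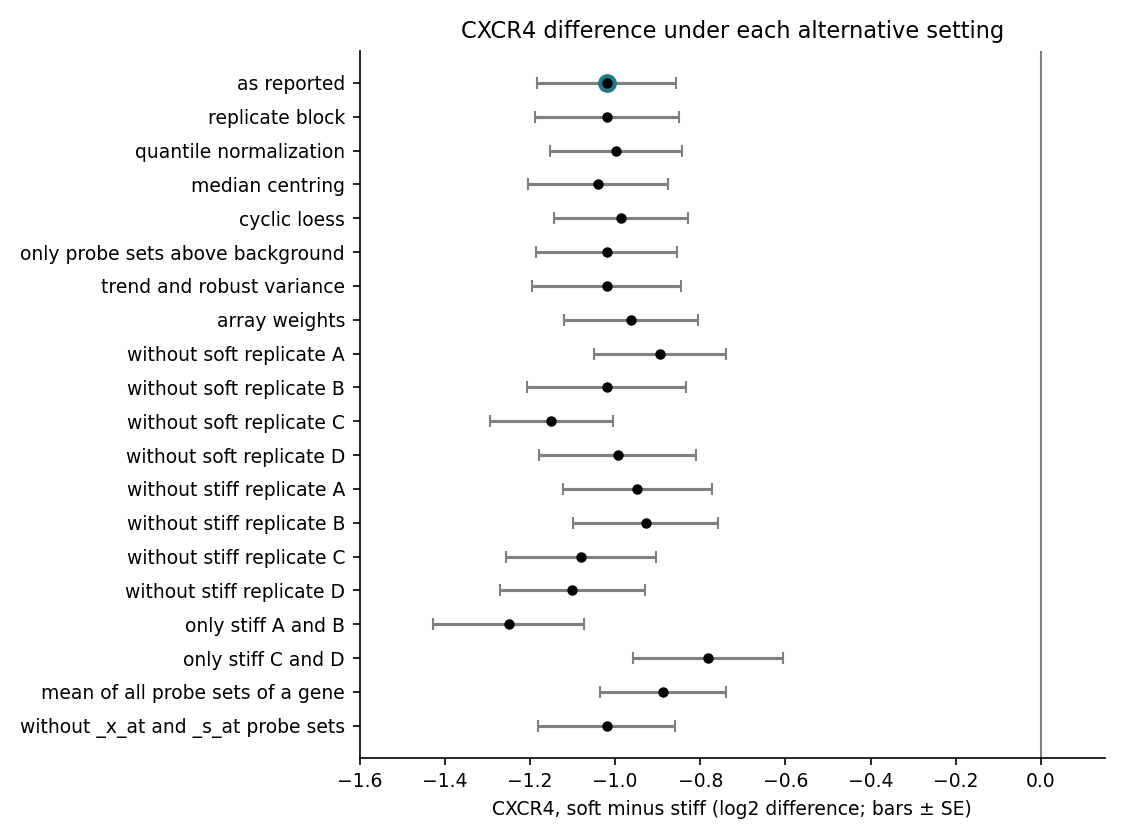
Log2 difference of CXCR4, soft minus stiff, with its SE, as reported and under each alternative setting. The values run between -1.25 (only stiff A and B) and -0.78 (only stiff C and D), all below 0.

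ACKR3, the arrestin-coupled scavenger, had no probe set above background in either group. Background here is 5.96, set at the 95th percentile over 16 genes taken as silent in breast cells. Probe sets differ in affinity, so it is a rough mark. In the counts below, a gene was above background where its soft or its stiff mean exceeded that level. The brightest ACKR3 probe set, 1559114_a_at, read 4.28, 4.50, 4.60 and 4.76 on soft, against 4.41, 4.60, 4.31 and 4.34 on stiff. These groups overlapped, with a difference of 0.12 (SE 0.103). Probe set 232746_at read 4.06, 4.24, 3.88 and 3.92 on soft, against 3.70, 3.74, 3.76 and 3.98 on stiff (difference 0.23, SE 0.0923), with stiff D above soft C and D. Probe set 212977_at ranged over 3.22 to 3.52 on soft and 3.29 to 3.60 on stiff, a difference of -0.02 (SE 0.0893).

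CXCL12, the ligand, was likewise under background on both of its probe sets. Probe set 203666_at read 5.04, 4.73, 4.94 and 4.67 on soft, against 5.11, 5.08, 4.60 and 4.85 on stiff. The arrays interleaved and the difference was -0.07 (SE 0.12), at -0.25 from the stiff A and B pair and 0.12 from the C and D pair. Probe set 209687_at ranged over 3.54 to 3.88 on soft and 3.34 to 4.01 on stiff, with a difference of -0.0025 (SE 0.132). RMA compresses differences of dim probe sets, so small changes in the ligand or in ACKR3 may not show at this signal.

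The label of the cell line was set against its markers, and most of them fitted it. All 5 genes known as high in MDA-MB-231 (VIM, CD44, EGFR, CAV1 and AXL) had mean levels between 11.73 and 14.58. Of these, AXL, a receptor tyrosine kinase, passed the test, lower on soft (difference -0.23, SE 0.0575, adjusted p = 0.0318, limma). AXL was called at 1 of its 2 probe sets. PGR and CDH1, known as silent there, had 3.60 and 4.24 on soft and 3.65 and 4.29 on stiff. ESR1, ERBB2 and GATA3, known as low there too, lay above background at 6.43, 8.01 and 8.24 on soft and 6.38, 7.96 and 8.32 on stiff. CXCR4 is also a leukocyte gene. Of 5 leukocyte markers measured, 1 was above background (CD3E, at 6.15 on soft and 6.04 on stiff) and the lowest adjusted p was 0.291 (limma), that of the leukocyte antigen PTPRC, which had 3.77 on soft and 3.99 on stiff. The mean level of that list ran over 5.22 to 5.50 on soft arrays and 5.11 to 5.37 on stiff arrays. Of 6 fibroblast markers 2 were above background and the lowest adjusted p was 0.395 (list mean 4.75 to 4.95 on soft arrays, 4.79 to 4.94 on stiff). Of 5 endothelial markers 2 were above background (list mean 5.50 to 5.59 on soft arrays, 5.39 to 5.59 on stiff). PECAM1 was the one of them that passed, higher on soft by 0.49 (adjusted p = 0.00211, limma), and it was called at 1 of its 5 probe sets. The part of these markers in the CXCR4 difference was not tested.

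The genes whose profile over the 8 arrays was closest to that of CXCR4 were sought among 12078 genes. Each of these had a mean over the 8 arrays above the background level. Likeness was the mean absolute distance on the log2 scale after each profile was centred on its own mean. The closest was P3H2, a collagen prolyl 3-hydroxylase, at a distance of 0.0838. It was followed by FAT3, an atypical cadherin (0.09), CPED1 (0.0981), PRR16 (0.115), GJA1, the gap junction protein connexin 43 (0.115), and ZNF702P, a zinc finger pseudogene (0.117). The other CXCR4 probe sets, at 0.0975 and 0.105, were about as far from 217028_at as these genes.

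Their array values show what is shared. P3H2 read 9.10, 9.24, 9.68 and 9.33 on soft, against 10.42, 10.37, 10.02 and 10.04 on stiff. FAT3 read 7.28, 7.79, 8.17 and 7.63 on soft, against 9.07, 9.16, 8.44 and 8.34 on stiff. GJA1 read 8.88, 9.12, 9.39 and 9.13 on soft, against 10.13, 10.22, 9.71 and 9.71 on stiff. Soft A was the lowest and soft C the highest soft array in all 6 genes, and the stiff A and B arrays lay above C and D in all of them but ZNF702P, whose stiff C (7.19) lay just above its stiff A (7.18). Differences were -0.88 for P3H2, -1.04 for FAT3, -0.84 for CPED1, -0.81 for PRR16, -0.81 for GJA1 and -0.88 for ZNF702P. Each is the value of the brightest probe set of the gene. At P3H2, FAT3, CPED1 and PRR16 another probe set was not called lower, and GJA1 and ZNF702P have 1 probe set each. The 6 genes were picked by the likeness of these same array values. A shared order of the arrays thus follows from the pick, nothing is read from it, and no test is given.

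**Figure D3:**
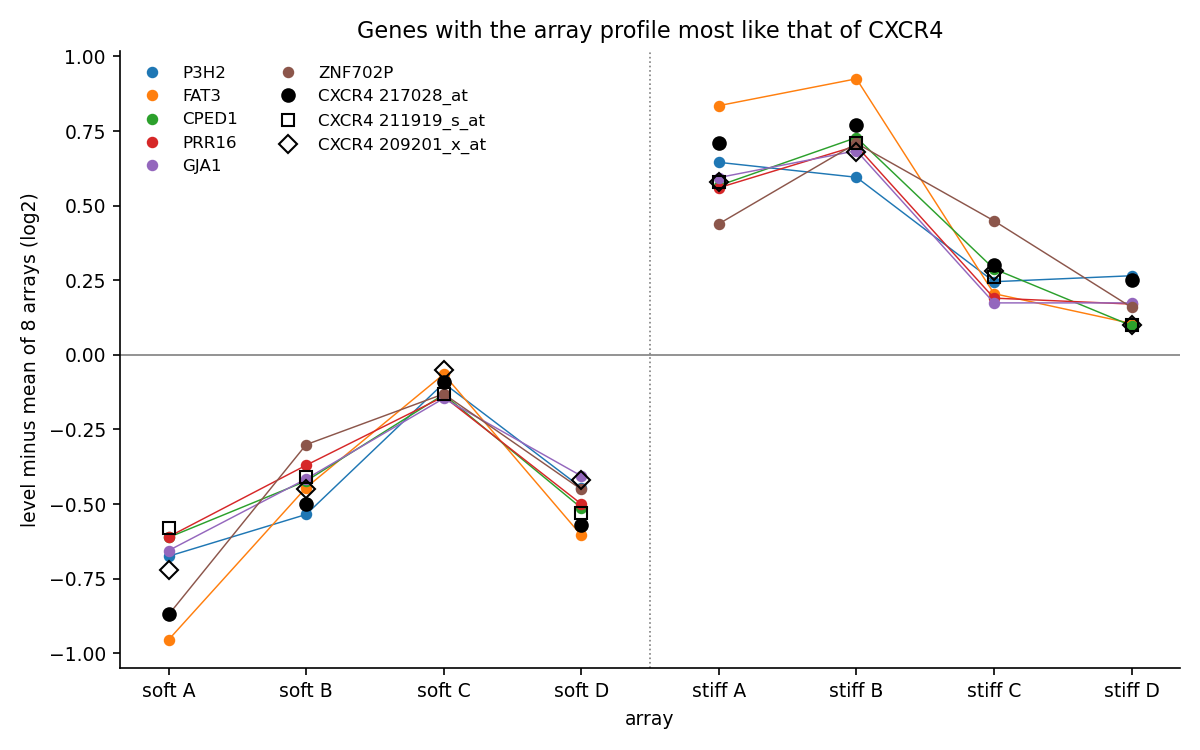
Level of 6 genes and of the 3 CXCR4 probe sets on each array, as the log2 level minus its mean over the 8 arrays. On soft, array A is lowest (-0.87 for CXCR4 217028_at) and C highest (-0.09), and on stiff, A and B (0.71 and 0.77 for CXCR4 217028_at) are above C and D (0.30 and 0.25). The exception is ZNF702P, whose stiff C (0.449) lies just above its stiff A (0.439).

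The genes around the receptors were taken in 7 lists, each gene by its probe set with the highest mean, and tested with limma over all probe sets (Benjamini-Hochberg, threshold 0.05). Over all 19775 genes, 4.39% were higher and 5.93% lower on soft, with a median difference of 0.0075. The excess of lower genes turned round against the stiff A and B pair (578 higher, 526 lower), against the C and D pair (448 higher, 387 lower) and at adjusted p under 0.01 (319 higher, 284 lower). Fewer genes were called at each of these settings, and fewer arrays entered the fits with either pair. The pairs were seen in the CXCR4 values and are not named in the labels. The cause of the turn was not tested.

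Among the G proteins, receptor kinases and arrestins that act directly on CXCR4, 3 of 16 measured were higher on soft, 1 lower and 12 not past the threshold (median difference 0.0425). GNAI2, an inhibitory G alpha subunit used by chemokine receptors, read 9.33, 9.15, 9.24 and 9.40 on soft, against 8.84, 8.71, 8.56 and 8.61 on stiff. It rose by 0.60 (SE 0.0804, adjusted p = 0.00162), with no overlap. Its partner subunit GNB1 rose by 0.50 (SE 0.0687, adjusted p = 0.00175), at 11.65 to 11.75 on soft and 11.10 to 11.35 on stiff. GNB1 was called at 2 of its 3 probe sets, and their mean differed by 0.26 (adjusted p = 0.00559). GNAI1, another inhibitory alpha subunit, moved the other way: it fell by 0.40 (SE 0.0978, adjusted p = 0.0291) and read 8.14 to 8.63 on soft and 8.77 to 8.92 on stiff. It was called at 1 of its 2 probe sets. That call was lost without soft B, soft D, stiff B, stiff C or stiff D (adjusted p between 0.0529 and 0.0769). The receptor kinase GRK5 rose by 0.27 (SE 0.0695, adjusted p = 0.0341), a call lost without soft A, soft B, soft D, stiff A, stiff B or stiff C (adjusted p between 0.0711 and 0.0932). GRK5 was called at 1 of its 4 probe sets, and their mean differed by 0.13 (adjusted p = 0.111).

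GRK2, the kinase best known for phosphorylating the CXCR4 tail, differed by -0.04 (SE 0.0621, adjusted p = 0.766). ARRB1, which binds the phosphorylated receptor, differed by 0.23 (SE 0.0988, adjusted p = 0.184) at its brightest probe set. From the stiff A and B pair ARRB1 differed by 0.06 (adjusted p = 0.78) and from the C and D pair by 0.41 (adjusted p = 0.0372). Another 3 of its 7 probe sets were called higher. ARRB2 was not analysed here.

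Of 25 signal relay and migration genes downstream of the receptor, 2 rose on soft and the other 23 did not pass (median difference 0.015). DOCK1, an exchange factor for RAC1, rose by 0.28 (SE 0.0655, adjusted p = 0.0231) at 1 of its 5 probe sets, while their mean differed by -0.04. Its call was lost without stiff C or stiff D (adjusted p = 0.0657 and 0.0655). RAC2, a RAC GTPase of blood cells, rose by 0.27 (SE 0.059, adjusted p = 0.0168), at 11.54 to 11.66 on soft and 11.28 to 11.37 on stiff. It was called at 1 of its 2 probe sets. That call was lost without soft D or stiff B (adjusted p = 0.0507 and 0.0553).

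Of 21 genes that sort CXCR4 for recycling or degradation, all above background, 1 rose on soft and the other 20 did not pass (median difference -0.0325). PRKCA, a protein kinase C, an enzyme class whose activation internalises CXCR4, rose by 0.31 (SE 0.0597, adjusted p = 0.00965), at 11.54 to 11.67 on soft and 11.24 to 11.34 on stiff. It did so at 1 of 5 probe sets, and their mean differed by 0.0675 (adjusted p = 0.466). ITCH, the ubiquitin ligase that marks CXCR4 for lysosomes, differed by 0.13 (SE 0.0662, adjusted p = 0.285).

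Of 17 transcription factors linked to CXCR4, 2 rose on soft, 3 fell and 12 did not pass (median difference 0.0525). KLF2, a zinc finger factor that governs trafficking receptors in lymphocytes, read 10.79, 10.71, 10.56 and 10.74 on soft, against 9.77, 9.74, 9.88 and 9.91 on stiff. It rose by 0.88 (SE 0.0712, adjusted p = 0.000124), and its other probe set, without such a suffix, differed by 0.32 (adjusted p = 0.0765). SNAI2, a repressor of epithelial genes, fell by 0.51 (SE 0.0759, adjusted p = 0.0028), at 9.24 to 9.50 on soft and 9.80 to 9.99 on stiff. ETS1 fell by 0.28 (SE 0.0698, adjusted p = 0.0323), and lost its call without soft A, soft D, stiff A, stiff C or stiff D (adjusted p between 0.0534 and 0.0938). All 3 ETS1 probe sets were called lower, and their mean differed by -0.44 (adjusted p = 0.00178). TFAP2A, named after its values were seen, fell by 0.26 (adjusted p = 0.0251). Its call was lost without soft C, soft D, stiff A, stiff B or stiff D (adjusted p between 0.0526 and 0.0781), and the mean of its 3 probe sets differed by -0.02 (adjusted p = 0.855).

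Of the other factors known to act on CXCR4, SP1 alone passed the threshold. SP1, which binds GC boxes, rose by 0.31 (SE 0.0759, adjusted p = 0.0289) at 1 of 4 probe sets, with 9.84 to 10.17 on soft and 9.64 to 9.66 on stiff. The call was lost without any 1 of the stiff arrays, soft A or soft D (adjusted p between 0.0546 and 0.0722), and the mean of the SP1 probe sets differed by 0.17 (adjusted p = 0.0424). NRF1, which drives basal CXCR4 transcription, read 7.48, 7.64, 7.55 and 7.65 on soft, against 7.67, 7.82, 7.76 and 7.74 on stiff (difference -0.17, SE 0.0649, adjusted p = 0.144), and 1 of its 5 probe sets was called lower. YY1, which represses the same promoter, differed by -0.13 (SE 0.0609, adjusted p = 0.231), with 1 of its 6 probe sets called lower and 1 higher. HIF1A, the hypoxia factor that induces CXCR4, differed by 0.16 (SE 0.0566, adjusted p = 0.11). It passed the threshold with probe sets above background alone (0.0324), with the trended and robust variance (0.00577) and over genes in place of probe sets (0.0499).

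Of 20 other ligands, co-receptors and ligand-processing genes, 12 were above background, 1 fell on soft and the other 19 did not pass (median difference -0.015). The 1 was ADM, adrenomedullin, a peptide that ACKR3 also clears. ADM read 10.88, 10.92, 11.10 and 10.81 on soft, against 11.22, 11.21, 11.99 and 11.62 on stiff, a fall of 0.58 (SE 0.154, adjusted p = 0.0377). From the stiff A and B pair ADM differed by -0.29 and from the C and D pair by -0.88, the opposite order to that of CXCR4. The call was lost without soft A, soft B, soft D, stiff C or stiff D (adjusted p between 0.0536 and 0.0959). MIF, an alternative ligand of CXCR4, read 13.08 to 13.19 on soft and 13.07 to 13.16 on stiff (difference 0.01, SE 0.0575, adjusted p = 0.929). CXCL11, the other chemokine bound by ACKR3, lay under background at 3.17 to 3.29 on soft and 3.01 to 3.18 on stiff (difference 0.12, adjusted p = 0.308). The list count rests on the brightest probe set of each gene. There MMP14, named after its values were seen, differed by 0.235 (SE 0.0804, adjusted p = 0.099, limma). Yet 3 of its 4 probe sets were called higher. HMGB1, named likewise, differed by -0.14 (SE 0.0599, adjusted p = 0.187, limma), with 1 of its 5 probe sets called lower. Averaging each gene over its probe sets gave 1 higher and 2 lower in this list.

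Of 19 other chemokine receptors, 4 were above background (CXCR1, CXCR3, CXCR5 and CCRL2), and 0 passed the threshold with limma, with 1 higher and 0 lower at an unadjusted p under 0.05 (median difference 0.04, range -0.13 to 0.41). The 4 are named after their values were seen. CCRL2, a non-signalling receptor, had 9.82 on soft and 9.65 on stiff (difference 0.16, SE 0.102, adjusted p = 0.39). CXCR1 had 5.97 on soft and 5.88 on stiff, so it counted by its soft mean alone. CXCR3 and CXCR5 lay between 6.16 and 6.37 in both groups. All of these were near the background level.

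Genes reported with CXCR4 as high in MDA-MB-231 sublines that spread to bone formed the last list. Of its 8 genes 5 fell on soft and 3 did not pass, with a median difference of -0.41 beside 0.0075 over all genes. The list was written with the falls of IL11 and CCN2 on soft known, so it is not independent evidence of its direction. IL11, a cytokine that promotes osteoclast formation, read 8.45, 8.44, 8.70 and 8.46 on soft, against 9.53, 9.50, 9.79 and 9.72 on stiff. It fell by 1.12 (SE 0.0875, adjusted p = 9.9e-05) and its groups lay far apart. CCN2, a matricellular protein, read 12.20, 12.25, 12.44 and 12.13 on soft, against 12.82, 12.83, 12.88 and 12.79 on stiff, a fall of 0.58 (SE 0.0734, adjusted p = 0.00125). FST, the activin antagonist follistatin, read 11.12, 10.70, 11.10 and 10.79 on soft, against 11.41, 11.51, 11.84 and 11.84 on stiff. It fell by 0.72 (SE 0.125, adjusted p = 0.00588), with all 3 of its probe sets lower. The growth factor FGF5 read 6.93, 7.16, 7.10 and 6.82 on soft, against 7.46, 7.63, 7.43 and 7.32 on stiff, a fall of 0.46 (SE 0.0912, adjusted p = 0.0112). At its probe set without such a suffix FGF5 differed by -0.15 (adjusted p = 0.283). The proteoglycan core SRGN, named after its values were seen, fell by 0.36 (SE 0.0815, adjusted p = 0.0197), a call lost without stiff C or stiff D (adjusted p = 0.0566 and 0.0538). SRGN was called at 2 of its 3 probe sets.

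The other 3 genes of that list, named after their values were seen, were not past the threshold. The collagenase MMP1, also in the ligand list, had 7.14 on soft and 7.28 on stiff (difference -0.14, SE 0.109, adjusted p = 0.515). ADAMTS1 differed by -0.28 (SE 0.206, adjusted p = 0.471). SPP1, osteopontin, was under background at 3.48 on soft and 3.45 on stiff. The pairs of stiff arrays ordered these genes in different ways. IL11 differed by -1.0 from the A and B pair and by -1.24 from the C and D pair. For FST these differences were -0.53 and -0.91, and its call was lost against the A and B pair (adjusted p = 0.054). CCN2 differed by about the same from both pairs, at -0.57 and -0.58, and FGF5 kept the order of CXCR4, at -0.54 and -0.37. ADAMTS1 turned with the pair, at 0.17 from A and B and -0.74 from C and D, as did MMP1, at 0.05 and -0.32.

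**Figure D4:**
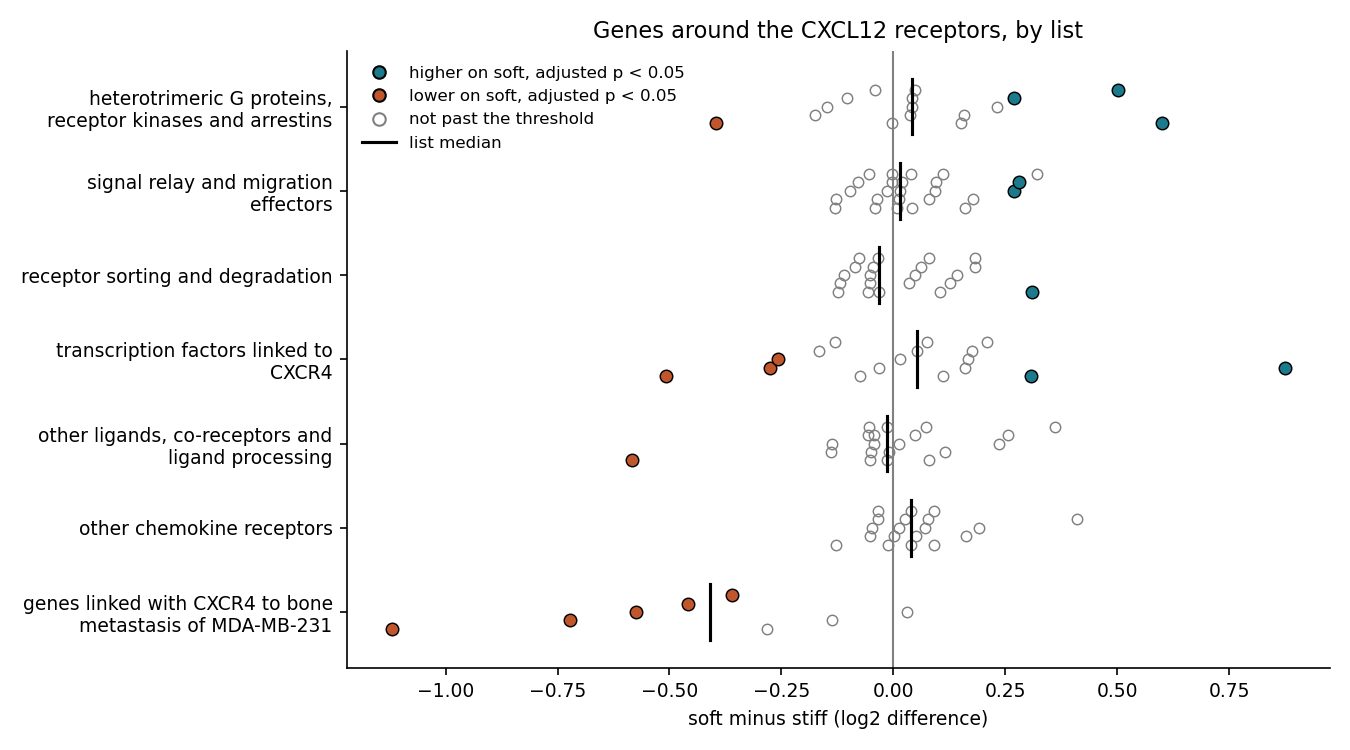
Log2 difference, soft minus stiff, of each measured gene in the 7 lists, filled where adjusted p passed 0.05, with the list median as a vertical line. The list linked to bone metastasis lies lowest (5 of 8 lower, median -0.41), and the medians of the other lists lie between -0.0325 and 0.0525. That list was written with the falls of IL11 and CCN2 known, so its place is not independent evidence. Of all genes, 5.93% were called lower.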

How the data were processed

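Total RNA of 8 samples was labelled with biotin and hybridised to Affymetrix arrays, per the labels' protocols. The authors deposited log2 RMA levels, 1 for each probe set on each array. RMA is the method in the submitters' processing notes, and the values themselves showed the log2 scale. Its software and version are not given in the sources used here. RMA equalises arrays, which removes shifts common to all genes.

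Of 54675 probe sets, 62 manufacturer controls were left out. Platform annotation, updated by gene identifier against RefSeq, gave 1 symbol to 41091 probe sets, several to 1801 (not used) and none to 11721. Soft and stiff were compared with limma 3.58.1 in R 4.3.3 (lmFit, eBayes without trend, two-sided, Benjamini-Hochberg over 54613 probe sets, no filter), tested on simulated data. Alternatives were a replicate block, other normalizations, a background filter, trended robust variance, array weights, arrays left out, either pair of stiff arrays, other probe set choices and a threshold of 0.01. Arrays correlated at 0.9932 to 0.9982 and no pair was identical.

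The members and lists were chosen with earlier results of these data known. Named genes are the members, 10 genes whatever their result, up to 4 called genes with the largest differences per list and the 6 most alike. Exceptions are marked in the text, beside the cell type markers. Of these 10, ARRB2 is not reported here, nor are some other genes of the lists, having no probe set with a single symbol in the tables used.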

Additional observations from a re-analysis of the deposited data

Results flagged for a closer look

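Among 80 groups of 4 arrays checked for a value far from the others, 3 stood out, where chance flags about 1 in 20. IL11 on soft C was 8.7, with the other soft arrays at 8.44 to 8.46. SRGN on soft A was 12.77, with the other soft arrays at 13.02 to 13.06. TFAP2A on stiff D was 7.98, with the other stiff arrays at 7.86 to 7.88. No array of CXCR4, ACKR3 or CXCL12 stood out in this way.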

How the results depend on the processing

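CXCR4 stayed lower on soft in 19 of 19 alternatives (-1.25 to -0.78), each within 1 SD between replicates of the reported value. Some of these could not change the difference. The replicate block, the background filter and trended, robust variance left it at -1.02, and leaving out _x_at and _s_at probe sets kept 217028_at. ACKR3 ranged over 0.03 to 0.21 and CXCL12 over -0.25 to 0.12 in 18 alternatives each, both being under background and so dropped by the filter. List counts are small and moved more. The counts reported were 4 for G proteins and kinases, 2 for signal relay, 1 for sorting, 5 for transcription factors, 1 for other ligands, 0 for other receptors and 5 for the bone metastasis list. With a replicate block they became 3 for G proteins, 1 for signal relay, 3 for transcription factors and 1 for other receptors. Above background they became 2 for sorting and 2 for other ligands, and with trended, robust variance 2 for other ligands. With the mean of all probe sets they became 1 for signal relay and 3 for other ligands, and without _x_at and _s_at probe sets 2 for G proteins and 1 for signal relay. At adjusted p under 0.01 they became 2, 0, 2, 0 and 3 for G proteins, signal relay, transcription factors, other ligands and bone metastasis. Against only stiff A and B they became 2, 0, 0, 2, 0 and 3 for G proteins, signal relay, sorting, transcription factors, other ligands and bone metastasis. Against only stiff C and D they became 1, 0, 2 and 2 for signal relay, sorting, transcription factors and other ligands. Leaving out each array gave 2 to 4 for G proteins, 1 to 3 for signal relay, 2 to 5 for transcription factors, 0 to 2 for other ligands, 0 to 1 for other receptors, 1 to 1 for sorting and 4 to 5 for bone metastasis. The G protein list also held 5 calls and the transcription factor list 6 with either the background filter or trended, robust variance, and signal relay 3 with that variance. By direction, the mean of all probe sets gave 4 transcription factors higher and 2 lower, where 2 and 3 were reported. For the G protein list that mean gave 2 higher and 2 lower, where 3 and 1 were reported. Over all probe sets 5061 were called, 6856 when only probe sets above background were tested, 6747 with trended, robust variance, 3937 with the replicate block, 1663 at adjusted p under 0.01, 2659 against only stiff A and B, 2188 against only stiff C and D, and 2851 to 5080 with 1 array left out. Fewer arrays entered the fits with 1 pair of stiff arrays or with 1 array left out. For other settings the cause was not tested.

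The letters A to D marked no shared culture in the labels. Same-letter arrays had deviations correlated at -0.118 to 0.122, and 1 of 4 soft arrays correlated best with its own letter, so the letters were not taken as pairs.

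Against only stiff A and B the calls of DOCK1, PRKCA, GNAI1, GRK5, RAC2, SP1, ETS1, TFAP2A, ADM, FST and SRGN were lost. Against only stiff C and D those of PRKCA, GNAI1, GRK5, RAC2, SP1, ETS1, TFAP2A and FGF5 were lost. With the replicate block the calls of GRK5, DOCK1, ETS1 and TFAP2A were lost (adjusted p = 0.0588, 0.0637, 0.059 and 0.0631, limma). Median centring gave 747 genes higher and 1283 lower.

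CXCL12 changed sign against only stiff C and D (0.12) and without stiff A (0.00167). Named genes of the lists that changed sign were not past the threshold under that setting. MIF was -0.0075 with median centring, -0.0175 against only stiff A and B, -0.00667 without soft D and -0.00417 without stiff C. With the mean of all probe sets GRK2 was 0.0708, ITCH -0.0563 and DOCK1 -0.043. Without _x_at and _s_at probe sets ITCH was -0.178 and YY1 0.115.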
